A study of Mus musculus with 16 samples.

Results

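Genes of the kidney cortex that lay on the same side of wild type in all 3 Cre-carrying mutant groups were examined across every annotated gene of a mouse microarray data set. For each of 22180 genes the mean of the 3 mutant group means was set against the wild-type mean, and a gene was counted as shared when that difference passed an adjusted p of 0.05 and each mutant group mean lay on that side. The difference of means was called in 1430 genes (6.45%), 646 of them higher (2.91%) and 784 lower (3.53%). With the requirement on each group mean, 1184 of 22180 genes (5.34%) were shared, 470 of them higher (2.12% of all genes) and 714 lower (3.22%) in the mutants. The 16 arrays measured total RNA of kidney cortex at 3 months of age, 4 arrays to a group, which may come from fewer animals. Wild-type mice were of strain C57BL/6 and are labelled WT, with no Cre named. The Vhl mutants (VhlF/FKsp-Cre), the Pbrm1 mutants (Pbrm1F/FKsp-Cre) and the double mutants (VhlF/FPbrm1F/FKsp-Cre) were all of a mixed background of C57BL/6, BALB/c and 129, and all carried Ksp-Cre. No group carried Ksp-Cre without a floxed gene, and no wild-type array came from the mixed background. Cre, the floxed alleles, strain and cohort therefore cannot be told apart in any difference between all the mutants and wild type.

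Vhl encodes the subunit that marks hypoxia-inducible factors for destruction, and Pbrm1 encodes a bromodomain subunit of a SWI/SNF chromatin remodelling complex. Both are lost in many clear cell renal carcinomas. The genotypes were compared to find early changes of transcription on the way to such tumours. Ksp-Cre expresses the recombinase from the promoter of the kidney cadherin gene Cdh16, which is active in tubule epithelium, so blood, stromal and vascular cells of the cortex keep their floxed alleles. Inbred strains of mice differ in the expression of many genes in cis, and a conditional allele made in 129 cells and crossed to another strain keeps a stretch of 129 chromosome around it.

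Array values are log2 expression units, and a gene at the median of an array read 5.18 to 5.27. The description of each array carries a number, 2 numbers to a group (arrays 1 and 2 against 3 and 4, or 1 to 3 against 4 in the double mutants). A letter, L or R, follows the number. Arrays 2 and 3 of the double mutants carry the same number and letter, so by label they may be repeats of 1 sample. Their deviations from the group mean correlated at -0.51, against 0.01 for double mutant arrays 1 and 2 and -0.07 for arrays 3 and 4. Whether arrays 2 and 3 are repeats was not tested. What number and letter stand for is not given. If they are an animal and its left and right kidney, each group holds 2 animals, not 4, and the p-values, which measure the spread between arrays, are too small. Vhl read 6.55, 6.24, 6.23 and 6.34 in wild type, and where it is floxed it differed by -0.06 ± 0.10 in the Vhl mutants (adjusted p = 0.849) and by -0.12 ± 0.10 in the double mutants (adjusted p = 0.546). Pbrm1 read 8.14 to 8.26 in wild type, and where it is floxed it differed by -0.01 ± 0.07 in the Pbrm1 mutants (adjusted p = 0.978) and by -0.07 ± 0.07 in the double mutants (adjusted p = 0.614). No loss of either transcript was called in its floxed genotypes. Which exons these probe sets cover is not given in the sources used here, so the labels were not checked by them. The median of the proximal tubule list lay between -0.10 and 0.08 of the wild-type mean in each of the 16 arrays. Shared genes numbered 0 of 7 podocyte genes and 0 of 4 sex chromosome genes, beside 5.34% of all genes. The adipocyte list stood above the wild-type mean, by list medians of 0.32 to 0.60, in 3 mutant arrays (Vhl array 2, Pbrm1 array 3 and double array 3). Macrophage genes were higher as a list by 0.58 to 0.92 in the Vhl mutants and by 0.65 to 1.06 in the double mutants, and lay between -0.14 and -0.05 in the Pbrm1 mutants.

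The shared shifts were small and only part of them were of one size in the 3 genotypes. Their median size was 0.34 log2 units, and 168 of the 1184 reached 1.5-fold, 103 rises and 65 falls. In 283 shared genes, 79 higher and 204 lower, all 12 mutant arrays lay beyond all 4 wild-type arrays, a separation that 1.44% of all genes showed. Tested alone against wild type, 851 genes (3.84%) were called in the Vhl mutants, 895 (4.04%) in the Pbrm1 mutants and 2706 (12.2%) in the double mutants, and 101 shared genes (0.455% of all genes, 35 higher and 66 lower) were called in each. These 3 comparisons share the wild-type arrays, and with no test at all 48.1% of genes had their 3 mutant means on one side of wild type, 20.7% above it.

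The evenness of the shift was described by a test whose contrasts left out the wild-type mean. Its variance estimates came from all 16 arrays and also served the calls of shared genes, so the calls are not independent. Between the 3 mutant groups a moderated F test called 525 of the 1184 shared genes (44.3%), against 13.8% of all genes, and called 57.0% of the rises and 36.0% of the falls. The double mutants had the largest of the 3 shifts in 69.8% of the rises and 58.8% of the falls. Median rises were 0.32 in the Vhl, 0.29 in the Pbrm1 and 0.54 in the double mutants, and median falls -0.27, -0.28 and -0.39. In 267 shared genes (65 higher, 202 lower), called even here, the 3 mutant differences lay within a range under 0.5 times their mean. An even shift is a description and does not show that the genotypes were equal.

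**Figure D1:**
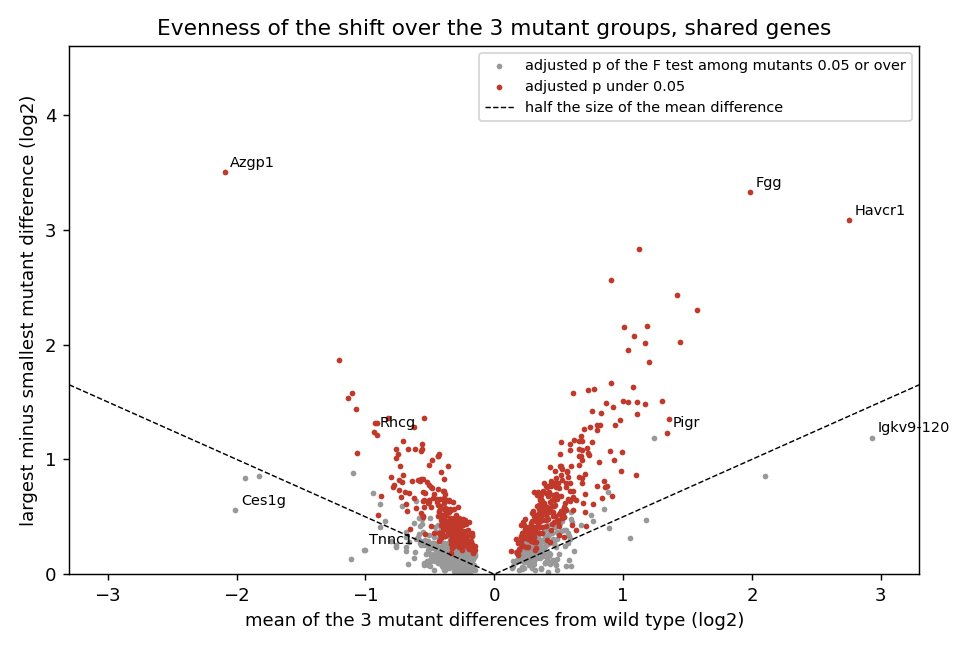
Each point is 1 of the 1184 shared genes, placed by the mean of its 3 mutant differences from wild type (x axis, log2) and by the spread between the largest and smallest of them (y axis, log2); red points had an adjusted p under 0.05 in the F test among the mutant groups, and points under the dashed line are the 267 even genes. Azgp1, Fgg and Havcr1 lie high, with a shift that differed several-fold between genotypes, and Ces1g and Tnnc1 lie low.

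The counts depended on the wild-type arrays. Arrays 1 and 2 and arrays 3 and 4 of the wild type carry different description numbers, and between these pairs 240 genes were more than 0.5 log2 units higher and 243 more than 0.5 lower in arrays 1 and 2. With arrays averaged within each description number, 217 rises and 210 falls were counted as shared, against 470 and 714. Without wild-type arrays 1 and 2 there were 313 rises and 237 falls, and leaving out only wild-type array 1 or only array 2 gave 451 or 466 falls. Of the 1184 genes 412 kept call and direction when arrays were averaged within numbers. Of these genes 240 (122 rises, 118 falls) were shared under each of 4 demanding settings, namely averaging within numbers, omitting either wild-type pair and omitting the 3 arrays of raised adipocyte genes. This smaller set was drawn after its values were seen.

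Many genes fell in a list of heat shock chaperones, which fold proteins, and in a list of the unfolded protein response, which induces chaperones of the endoplasmic reticulum. The first list is mainly cytosolic and also holds mitochondrial Hspd1 and Hspe1. Of 15 measured heat shock genes 12 fell and 0 rose (list median -0.41, all genes -0.01). Of 19 genes of the unfolded protein and amino acid responses 9 fell and 0 rose (list median -0.34), against 3.22% of all genes falling. In this second list 12 differences were negative and 7 positive. Its median was -0.46 in the Vhl, -0.30 in the Pbrm1 and -0.15 in the double mutants. By array it was -0.16 to -0.11 in the double mutants, inside the wild-type range of -0.17 to 0.165. Hspa5, which encodes the reticulum chaperone BiP, is counted in both lists. The heat shock factor binds inverted repeats of GAA. The heat shock element searched for here, GAA, TTC and GAA with any 2 bases between them, was found on either strand between 250 bases before and 50 bases after the start site in 179 of 27025 genes with a RefSeq promoter (0.662%). Among the heat shock list it was present in 3 of 10 fallen genes with a promoter (Hsph1, Hspd1 and Chordc1) and in 1 of 2 others (Hspe1). The reticulum stress element, CCAAT and CCACG with any 9 bases between them, was found on either strand in 37 of 27025 genes (0.137%), and in the second list in 2 of 7 fallen genes (Hspa5 and Creld2) and in 1 of 10 others (Hsp90b1). The stretches below show these elements in capitals in the pair Hspd1 and Hspe1 and in the reticulum genes that fell, each read 5′ to 3′ along the gene's own strand in RefSeq GRCm38.p6; Hspd1 and Hspe1 are divergent neighbours, and the same stretch, read from opposite strands, is upstream of both, with 2 overlapping matches, while the Creld2 match lies on the other strand.
Hspd1, minus strand, chr1:55088034-55088101: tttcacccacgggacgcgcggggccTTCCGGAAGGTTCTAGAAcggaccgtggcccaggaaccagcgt
Hspe1, plus strand, chr1:55088034-55088101: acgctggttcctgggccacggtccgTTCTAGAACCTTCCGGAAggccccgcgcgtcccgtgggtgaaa
Hspa5, plus strand, chr2:34772000-34772068: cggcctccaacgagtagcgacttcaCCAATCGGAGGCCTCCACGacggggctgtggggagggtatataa
Creld2, plus strand, chr15:88819495-88819563: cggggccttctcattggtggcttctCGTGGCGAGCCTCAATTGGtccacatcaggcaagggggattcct

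Hspd1 and Hspe1 encode the mitochondrial chaperonin and its partner. Hspd1 fell by 0.17 ± 0.05 on the log2 scale (1.13-fold, adjusted p = 0.0238), and Hspe1, beside it, had a difference of 0.03 ± 0.09 (adjusted p = 0.92). The difference between the pair was not tested, and the Hspd1 call was lost without wild-type array 1 or without wild-type array 2, among other settings. A match of letters is a description and no evidence of binding, and the genes without a match lack only these letters in this window.

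Among the inducible chaperones, Hspa1a read 9.80, 10.02, 7.51 and 7.38 in the wild-type arrays, 6.13, 6.13, 6.42 and 6.59 in the Vhl mutants, 7.43, 7.38, 6.27 and 5.92 in the Pbrm1 mutants and 7.65, 7.53, 6.63 and 6.80 in the double mutants. Wild-type arrays 1 and 2 stood more than 2 units above arrays 3 and 4, and the latter overlapped the highest Pbrm1 and double mutant arrays. Hspa1a fell by 1.94 ± 0.39 on the log2 scale (3.84-fold, adjusted p = 0.00383), and the call was lost when wild-type arrays 1 and 2 were left out or arrays averaged within numbers. Hspa1a and Hspa1b are near-identical genes whose probes can share transcripts; Hspa1b fell by 1.83 ± 0.48 on the log2 scale (3.56-fold, adjusted p = 0.0236) and its call was lost without wild-type array 1 or without array 2.

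Hsph1, which encodes a large stress chaperone that exchanges nucleotide on Hsp70, had no overlap between mutant and wild-type arrays. Hsph1 read 9.29, 9.38, 8.70 and 8.55 in the wild-type arrays, 7.78, 7.92, 7.99 and 7.91 in the Vhl mutants, 8.46, 8.49, 8.10 and 8.22 in the Pbrm1 mutants and 8.33, 8.22, 7.88 and 7.80 in the double mutants. Every mutant array was below the lowest wild-type array, and the F test among the mutants gave no call (adjusted p = 0.186). Hsph1 fell by 0.89 ± 0.13 on the log2 scale (1.86-fold, adjusted p = 0.000144) and kept its call in the 38 settings, with a fall of 0.54 without wild-type arrays 1 and 2. The co-chaperone Dnajb1 fell by 0.77 ± 0.15 on the log2 scale (1.7-fold, adjusted p = 0.00232) with a lowest wild-type value of 6.99 and a highest mutant value of 7.10, an overlap, and its call was lost without wild-type arrays 1 and 2. The constitutive Hspa8 and the Hsp90 activator Ahsa1, both named after their values were seen, were separated from wild type in all 12 mutant arrays, with falls of 0.28 ± 0.05 and 0.41 ± 0.08 (adjusted p = 0.00169 and 0.00207), calls lost without wild-type arrays 1 and 2. With the probe sets of a gene averaged, Hspa8 differed by -0.10 (adjusted p = 0.685). Chordc1, an Hsp90 co-chaperone, fell by 0.40 ± 0.10 (adjusted p = 0.016), a call lost without wild-type array 1 or 2.

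In the reticulum group, Hyou1, a large chaperone that works with BiP, had 9.29, 9.41, 8.97 and 8.93 in the wild-type arrays, against a lowest, median and highest mutant value of 8.22, 8.49 and 8.72. No arrays overlapped, and Hyou1 fell by 0.67 ± 0.10 on the log2 scale (1.59-fold, adjusted p = 0.000167), kept its call in the 38 settings and was even over the mutants (adjusted p among them = 0.868). Hspa5 read 9.01, 9.01, 8.65 and 8.36 in the wild-type arrays, 7.96, 8.04, 7.94 and 7.97 in the Vhl mutants, 8.18, 8.21, 8.44 and 8.37 in the Pbrm1 mutants and 8.39, 8.36, 7.92 and 8.18 in the double mutants. Wild-type array 4 lay inside the range of the Pbrm1 and double mutants, and Hspa5 fell by 0.60 ± 0.10 on the log2 scale (1.51-fold, adjusted p = 0.000952). Creld2, a stress-induced secreted protein, fell by 0.56 ± 0.11 on the log2 scale (1.47-fold, adjusted p = 0.00254). Both calls were lost without wild-type arrays 1 and 2. Hsp90b1, the reticulum Hsp90, had a difference of -0.15 ± 0.06 (adjusted p = 0.204).

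Wild-type arrays 1 and 2 exceeded arrays 3 and 4 by a list median of 0.35 in the heat shock genes and of 0.365 in the unfolded protein genes, against 0.005 over all genes. Without arrays 1 and 2, 1 of 15 heat shock genes and 1 of 19 unfolded protein genes fell, and 1 of the latter rose. With arrays averaged within numbers the falls were 6 and 3, and without wild-type arrays 3 and 4 they were 12 and 11, with 1 rise in the second list. Leaving out wild-type array 1 alone gave 9 and 3, array 2 alone 9 and 4, and leaving out the 3 arrays of raised adipocyte genes gave 10 and 3. What sets the wild-type pairs apart was not tested.

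**Figure D2:**
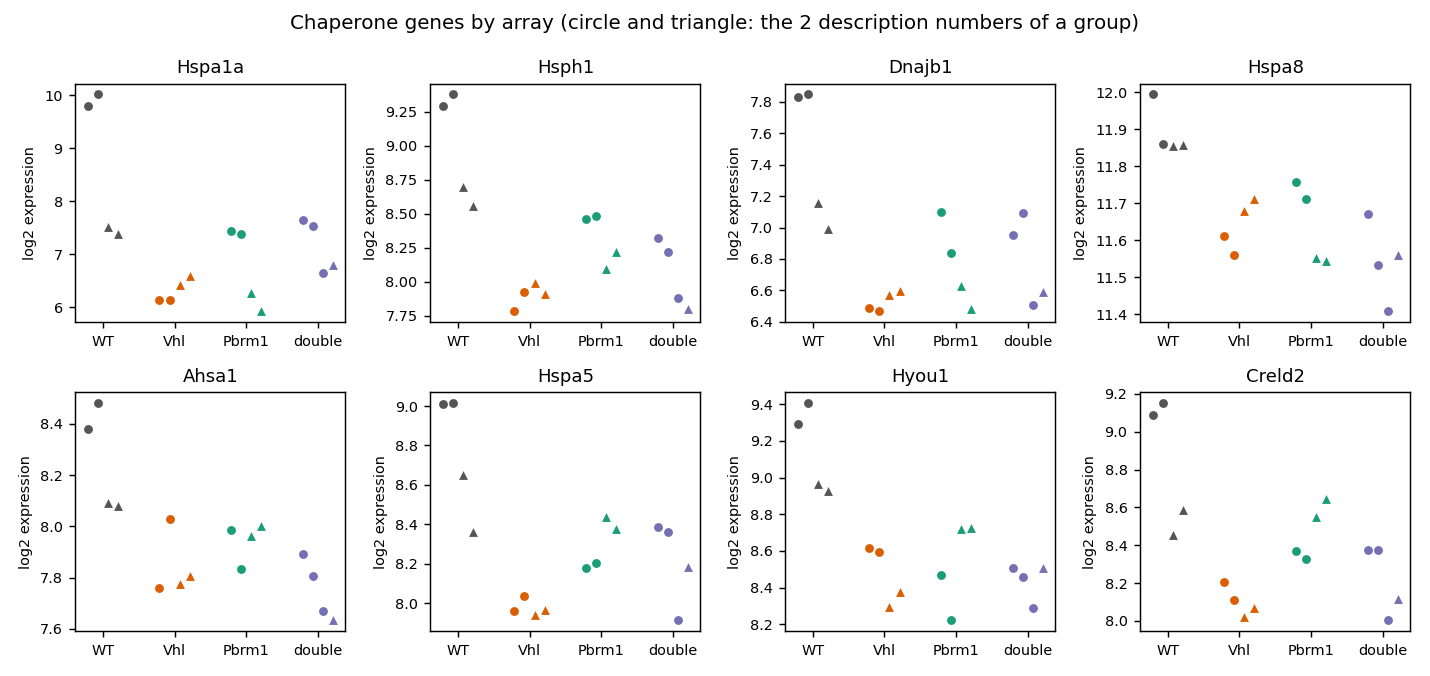
Log2 expression of 8 chaperone genes in each of the 16 arrays, by group on the x axis, with circles and triangles for the description numbers within a group. In Hspa1a, Hsph1, Dnajb1, Hyou1 and Creld2 wild-type arrays 1 and 2 (circles) stand above arrays 3 and 4 (triangles), and in Hsph1, Hspa8, Ahsa1 and Hyou1 all mutant arrays lie below every wild-type array.

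Ces1g, a carboxylesterase that hydrolyses lipid esters and a gene known to vary between strains, had the second largest fall. Ces1g read 7.58, 7.40, 8.53 and 8.50 in the wild-type arrays, 6.30, 6.39, 5.195 and 5.49 in the Vhl mutants, 6.24, 6.47, 6.21 and 6.48 in the Pbrm1 mutants and 5.54, 5.78, 6.14 and 5.71 in the double mutants. All mutant arrays were below all wild-type arrays, which themselves fell into pairs by number. Ces1g fell by 2.01 ± 0.21 on the log2 scale (4.03-fold, adjusted p = 4.06e-06), with an adjusted p among the mutants of 0.261, and kept its call in the 38 settings; it belongs to a cluster of similar esterase genes whose transcripts the probes may share. Azgp1, a secreted zinc-binding glycoprotein, had the largest mean fall but an uneven one. Azgp1 read 9.58, 9.53, 9.20 and 9.07 in the wild-type arrays, 8.23, 8.32, 8.84 and 8.62 in the Vhl mutants, 4.401, 5.24, 5.28 and 5.09 in the Pbrm1 mutants and 8.44, 8.45, 8.12 and 8.02 in the double mutants. All mutant arrays were below wild type, and the Pbrm1 arrays lay far below the rest. The differences were -0.84 in the Vhl, -4.34 in the Pbrm1 and -1.10 in the double mutants (adjusted p among them = 6.76e-11).

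Osgin1, a stress-responsive target of NRF2, was even over the mutants. Osgin1 read 9.13, 9.15, 8.97 and 8.68 in the wild-type arrays, 8.28, 8.11, 7.75 and 7.75 in the Vhl mutants, 8.41, 8.17, 7.91 and 7.86 in the Pbrm1 mutants and 8.03, 7.93, 7.85 and 7.72 in the double mutants. No mutant array reached the lowest wild-type array, and Osgin1 fell by 1.004 ± 0.11 on the log2 scale (2.01-fold, adjusted p = 7.79e-06). The catalytic subunit of glutathione synthesis, Gclc, was the other of 17 NRF2 targets to fall (-0.36 ± 0.09, adjusted p = 0.014), beside 3.22% of all genes falling. The Gclc call was lost without wild-type array 1 or 2, and 0 of the targets rose. Lonrf1, a protein with a Lon protease domain and RING fingers, had 6.90, 7.23, 6.34 and 6.32 in the wild-type arrays, against a lowest, median and highest mutant value of 5.01, 5.51 and 6.23. Lonrf1 fell by 1.12 ± 0.19 on the log2 scale (2.17-fold, adjusted p = 0.00092), and the call was lost without wild-type arrays 1 and 2. Slc46a3, a lysosomal transporter, fell by 1.06 ± 0.08 on the log2 scale (2.09-fold, adjusted p = 5.17e-08) with differences of -0.63 in the Vhl, -0.87 in the Pbrm1 and -1.69 in the double mutants.

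Alas1, the rate-limiting enzyme of heme synthesis, had the following values. Alas1 read 10.76, 10.66, 10.31 and 10.40 in the wild-type arrays, 9.58, 9.70, 10.19 and 10.29 in the Vhl mutants, 9.69, 9.69, 9.33 and 9.37 in the Pbrm1 mutants and 9.49, 9.58, 9.41 and 9.21 in the double mutants. The wild-type arrays were the 4 highest, with Vhl arrays 3 and 4 nearest to them. Alas1 fell by 0.91 ± 0.11 on the log2 scale (1.88-fold, adjusted p = 3.7e-05), and the mutants differed among themselves (adjusted p = 0.0269). Hebp1, a heme-binding protein, had 7.95, 7.92, 7.74 and 7.63 in the wild-type arrays, against a lowest, median and highest mutant value of 6.81, 7.04 and 7.27, with no overlap. Hebp1 fell by 0.80 ± 0.07 on the log2 scale (1.74-fold, adjusted p = 8.87e-07) and was even (adjusted p among the mutants = 0.0844). Cpox, a later enzyme of the same pathway, fell by 0.30 ± 0.05, and Slc25a37, which imports iron into mitochondria, by 0.50 ± 0.06, both named after their values were seen. Alad, the second enzyme of the pathway, went the other way in the mean (difference 0.40), with -0.09 in the Vhl, 0.46 in the Pbrm1 and 0.84 in the double mutants, and was not shared.

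Further even falls called in each genotype alone were named after their values were seen. Hsd11b1, which regenerates active glucocorticoid, had 6.98, 6.94, 6.77 and 6.60 in the wild-type arrays, against a lowest, median and highest mutant value of 5.88, 6.01 and 6.34. Hsd11b1 fell by 0.76 ± 0.08 on the log2 scale (1.7-fold, adjusted p = 7.79e-06). Ide, the insulin-degrading enzyme, fell by 0.50 ± 0.04 on the log2 scale (1.41-fold, adjusted p = 7.91e-07), with the 12 mutant arrays between 9.27 and 9.55 and the wild-type arrays between 9.82 and 9.97. The adhesion molecule Cadm1 fell by 0.69 ± 0.08 and the acid-sensing potassium channel Kcnk5 by 0.69 ± 0.10, again with no overlap of arrays. The calls of Hsd11b1, Cadm1 and Kcnk5 held in the 38 settings, and that of Ide in all but the 1.5-fold minimum.

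**Figure D3:**
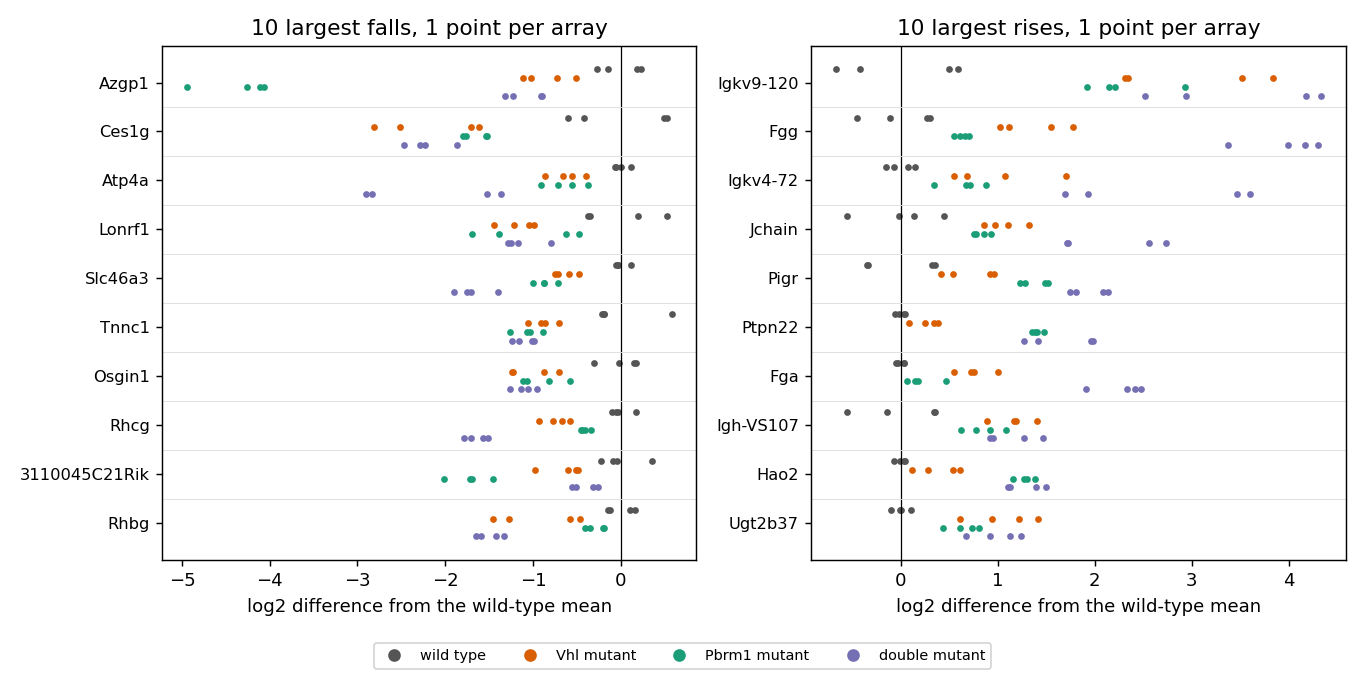
Log2 difference of each of the 16 arrays from the wild-type mean for the 10 largest falls (left) and the 10 largest rises (right) among shared genes whose arrays did not overlap. Igkv9-120 is near background in wild type, so its size is not reliable. For every gene shown the 12 coloured points of the mutants lie beyond the 4 grey wild-type points; Ces1g, Tnnc1 and Osgin1 have the 3 mutant groups close together, whereas the Pbrm1 mutants stand apart in Azgp1 and the double mutants in Fgg and Fga.

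Genes of the intercalated cells of the collecting duct lay below wild type as a list in all 3 mutants, to unequal depth. Of 12 measured genes 10 fell and 0 rose, beside 3.22% of all genes falling. The list median was -0.57, with -0.60 in the Vhl, -0.18 in the Pbrm1 and -0.90 in the double mutants. All 10 fallen genes also differed among the mutants by the F test. The ammonia channel Rhcg is an example. Rhcg read 9.46, 9.44, 9.39 and 9.67 in the wild-type arrays, 8.83, 8.91, 8.56 and 8.72 in the Vhl mutants, 9.15, 9.05, 9.04 and 9.09 in the Pbrm1 mutants and 7.92, 7.98, 7.70 and 7.79 in the double mutants. No mutant array reached wild type, and the double mutants were the lowest and the Pbrm1 mutants nearest to wild type. Rhcg fell by 0.93 ± 0.07 on the log2 scale (1.91-fold, adjusted p = 4.48e-08).

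Its basolateral partner Rhbg fell by 0.91 ± 0.13 on the log2 scale (1.88-fold, adjusted p = 0.000161). Atp6v1b1, the intercalated cell form of a proton pump subunit, was named after its values were seen, with differences of -0.62 in the Vhl, -0.33 in the Pbrm1 and -1.04 in the double mutants and no overlap with wild type. The anion exchanger pendrin (Slc26a4) fell by 0.76 ± 0.08 on the log2 scale (1.7-fold, adjusted p = 9.48e-06), although Pbrm1 array 1 lay above all wild-type arrays. Foxi1, the transcription factor that defines these cells, and the water channel Aqp6 were not called (differences -0.20 and -0.09). In these bulk samples fewer cells of a type and less RNA per cell cannot be told apart. The red blood cell list had 1 measured gene, Slc4a1, which intercalated cells also express, so erythrocyte RNA was not tested. The count of falls was 5 of 12 without wild-type arrays 3 and 4, 5 of 12 without the double mutants, and 8 to 10 without any single wild-type array.

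**Figure D4:**
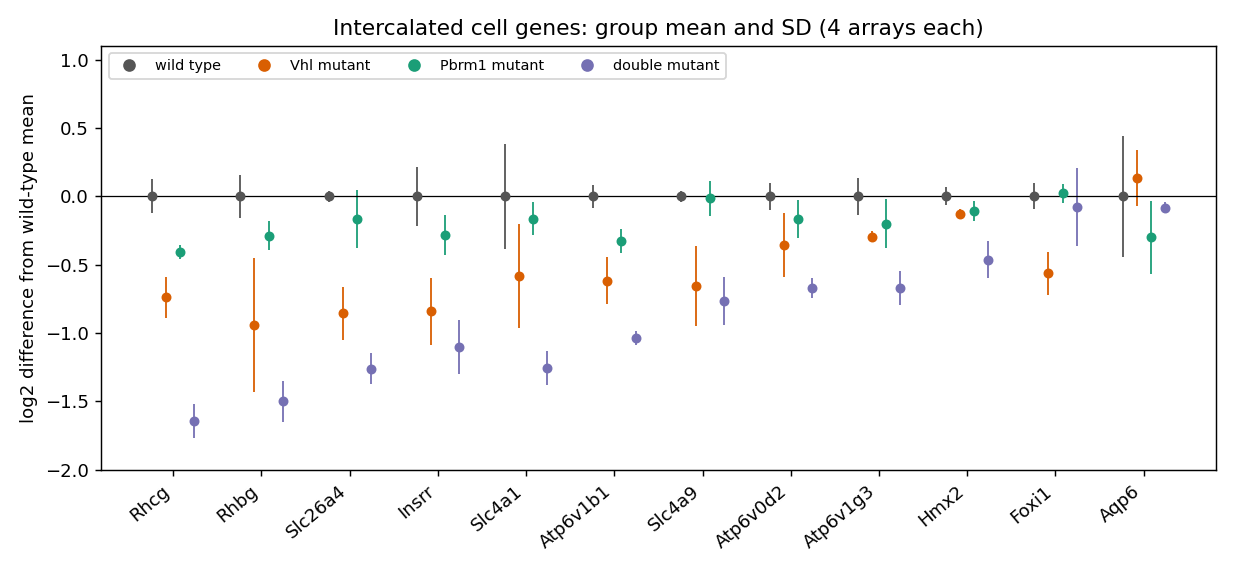
Group mean difference from wild type (points) and SD over 4 arrays (bars), in log2 units, for the 12 measured intercalated cell genes. The double mutants lie lowest for the 10 genes that fell, and the Pbrm1 mutants lie nearest to 0 in each of them, while Foxi1 and Aqp6 have no common direction.

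Other distal segments had smaller shares of falls. Of all genes 3.22% fell and 2.12% rose. In the distal convoluted tubule 6 of 11 genes fell and 0 rose, among them Klhl3, an adaptor that degrades WNK kinases (-0.43 ± 0.07), and Tmem52b (-0.31 ± 0.04), both with no overlap of arrays. Wild-type arrays 3 and 4 were above 1 and 2 in this list by a median of 0.23, and without arrays 3 and 4 the count was 3 falls and 1 rise; it was 4 falls without either array alone. In the thick ascending limb 3 of 11 fell, led by the chloride channel subunit Bsnd (-0.51 ± 0.07). Of 11 principal cell genes 1 rose and 2 fell. The water channel Aqp4 rose (0.99 ± 0.15; 0.58 without wild-type arrays 3 and 4), and Aqp3 fell (-0.39 ± 0.07), a call lost without wild-type arrays 1 and 2. Of 19 proximal tubule genes 3 fell and 1 rose. Hnf4a, the factor that maintains this epithelium, was down by 0.30 ± 0.06 in the mean of the mutant groups. That call was lost without wild-type arrays 1 and 2.

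Igkv9-120 is an immunoglobulin kappa variable segment. Igkv9-120 read 2.97, 3.22, 4.14 and 4.23 in the wild-type arrays, 7.16, 7.47, 5.95 and 5.99 in the Vhl mutants, 5.85, 5.56, 6.57 and 5.79 in the Pbrm1 mutants and 6.58, 6.16, 7.97 and 7.81 in the double mutants. Every mutant array exceeded every wild-type array; the wild-type mean of 3.64 lay below the lower quartile of the array with the highest one (3.72), so only levels are given and no size of the rise (adjusted p = 1.41e-05). The F test among the mutants gave no call (adjusted p = 0.133). The heavy chain segment Igh-VS107 rose by 1.06 ± 0.15 on the log2 scale (2.08-fold, adjusted p = 0.000111), also evenly, and by 0.46 with the probe sets of the gene averaged. Variable segments resemble each other, and their germline sequences and usage vary by strain, so what these probes read in the mixed background was not tested.

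Jchain, which joins polymeric antibody, was higher throughout. Jchain read 3.67, 4.20, 4.36 and 4.67 in the wild-type arrays, 5.203, 5.33, 5.54 and 5.09 in the Vhl mutants, 5.16, 5.003, 4.98 and 5.09 in the Pbrm1 mutants and 5.94, 5.95, 6.96 and 6.79 in the double mutants. All mutant arrays were above wild type, and the double mutants were highest. Jchain rose by 1.36 ± 0.18 on the log2 scale (2.58-fold, adjusted p = 7.45e-05). Pigr, the epithelial receptor for polymeric antibody, rose by 1.34 ± 0.13 on the log2 scale (2.53-fold, adjusted p = 1.14e-06), with differences of 0.71 in the Vhl, 1.38 in the Pbrm1 and 1.94 in the double mutants and no overlap of arrays. Of 13 lymphocyte and plasma cell genes Jchain and Ighm were shared rises, beside 2.12% of all genes. The Ighm call was lost without wild-type array 1 or 2, and 0 genes of the list fell. T and B cell genes such as Cd3e, Cd8a, Ms4a1 and Cd79a were not called (differences from -0.05 to 0.20), and the list median per array was 0.20 to 0.26 in the Vhl and 0.03 to 0.19 in the double mutants, with -0.08 to 0.03 in the Pbrm1 mutants. The part of plasma cells in the rise of Jchain was not tested.

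Acute phase genes, which interleukin-6 and STAT3 signalling raise in liver and injured tubules, had 8 of 20 members among the shared rises (2.12% of all genes rose) and 0 falls. The fibrinogen chains led them. Fgg read 4.95, 5.29, 5.70 and 5.67 in the wild-type arrays, 6.52, 7.18, 6.95 and 6.43 in the Vhl mutants, 6.11, 6.06, 5.95 and 6.01 in the Pbrm1 mutants and 9.70, 9.57, 8.78 and 9.39 in the double mutants. Every mutant array exceeded the wild-type arrays, and the double mutants stood above the other mutants. Fgg rose by 1.99 ± 0.16 on the log2 scale (3.96-fold, adjusted p = 2.44e-07), and Fga rose by 1.08 ± 0.10 on the log2 scale (2.12-fold, adjusted p = 1.17e-06), whereas Fgb, the other chain, was not called (difference 0.46, adjusted p = 0.338). Of these 8 genes 7 differed among the mutants. Complement C4b, one of the 8, had differences of 0.01 in the Vhl, 0.14 in the Pbrm1 and 2.57 in the double mutants, and was not called without the double mutants. The list count was 3 without the double mutants, 4 without the 3 arrays of raised adipocyte genes and 6 to 8 without any single wild-type array.

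Hypoxia-inducible factor targets rose in 11 of 29 and fell in 1, beside 2.12% of all genes rising and 3.22% falling. Glycolysis genes rose in 5 of 12. Although counted as shared, most of these rises were larger in the genotypes with floxed Vhl. Egln3 read 6.57, 6.70, 6.50 and 6.10 in the wild-type arrays, 8.63, 8.52, 8.73 and 8.76 in the Vhl mutants, 6.30, 6.34, 7.06 and 6.63 in the Pbrm1 mutants and 8.89, 8.80, 8.98 and 8.88 in the double mutants. Pbrm1 arrays overlapped wild type, and every array of the other mutants was higher. Egln3, the oxygen-sensing hydroxylase induced by the pathway, rose by 1.57 ± 0.11 on the log2 scale (2.97-fold, adjusted p = 4.48e-08), with differences of 2.19 in the Vhl, 0.11 in the Pbrm1 and 2.41 in the double mutants. Of the 12 shared genes of this list 11 differed among the mutants, and Ndrg1 was the other (differences of 0.24 in the Vhl, 0.46 in the Pbrm1 and 0.48 in the double mutants), with a call lost without wild-type array 2. Car9, a carbonic anhydrase, which rose by 0.53 with its probe sets averaged, departed from this order (0.04 in the Vhl, 0.96 in the Pbrm1 and 1.71 in the double mutants). The lactate exporter Slc16a3 rose by 1.20 ± 0.10 on the log2 scale (2.3-fold, adjusted p = 1.55e-07). The lipid droplet protein Plin2 was the 1 fall, with -0.14 in the Vhl, -0.26 in the Pbrm1 and -1.27 in the double mutants, and it was not called without the double mutants. Without wild-type arrays 1 and 2 the list had 5 rises, and without array 1 alone 7.

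Immune and injury genes were also uneven. Havcr1 encodes the kidney injury molecule. Havcr1 read 3.71, 4.39, 4.80 and 4.45 in the wild-type arrays, 6.91, 6.47, 6.24 and 5.51 in the Vhl mutants, 7.02, 7.37, 4.77 and 4.67 in the Pbrm1 mutants and 8.64, 8.79, 9.06 and 9.67 in the double mutants. Pbrm1 arrays 3 and 4 lay within the wild-type range while arrays 1 and 2 were more than 2 units above it. Havcr1 rose by 2.76 ± 0.39 on the log2 scale (6.8-fold, adjusted p = 0.000111). Of 20 injury genes Havcr1 and Cd44 were shared rises, beside 2.12% of all genes. In the mean 12 injury genes were called higher, beside 2.91% of all genes. Of 15 genes of antigen presentation 5 rose, among them the class II genes H2-Ab1 (0.93 ± 0.11) and H2-Aa (0.62 ± 0.08) and the peptide loader H2-DMa (0.52 ± 0.07, no overlap of arrays). Of 16 macrophage genes 5 rose as shared, led by Cd14 (0.90 ± 0.12), while the list median in the Pbrm1 mutants was -0.09. The part of macrophage RNA in the class II rises was not tested.

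Signalling genes with early induction were mixed. Egr1, a growth-factor-induced transcription factor, had 4.76, 4.92, 4.73 and 4.96 in the wild-type arrays, against a lowest, median and highest mutant value of 5.17, 5.67 and 6.18. No arrays overlapped and Egr1 rose by 0.84 ± 0.12 on the log2 scale (1.79-fold, adjusted p = 0.000104). Of 24 immediate early genes 4 rose (Egr1, Myc, Nr4a1 and Fosl2) and 2 fell (Jun and Gadd45g). Of all genes 2.12% rose and 3.22% fell. Gadd45g, a stress sensor, read 8.87, 9.20, 7.71 and 7.82 in wild type, and its fall (-0.94 ± 0.20) was not called without arrays 1 and 2. Tnfaip3, an inhibitor of NF-kB signalling, rose by 0.70 ± 0.10 on the log2 scale (1.63-fold, adjusted p = 0.000116), the tight junction gene Cldn1 rose by 0.85 ± 0.10 on the log2 scale (1.81-fold, adjusted p = 1.37e-05), and the membrane protein Emp1 rose by 0.86 ± 0.12 on the log2 scale (1.81-fold, adjusted p = 9.11e-05). These 3 genes, named after their values were seen, had no overlap of arrays and held in the 38 settings, Emp1 with 0.43 when its probe sets were averaged.

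Even rises numbered 65, against 202 even falls. Ugt2b37, a glucuronosyltransferase, had 9.001, 9.10, 8.99 and 8.90 in the wild-type arrays, against a lowest, median and highest mutant value of 9.44, 9.86 and 10.41. Ugt2b37 rose by 0.90 ± 0.11 on the log2 scale (1.86-fold, adjusted p = 4.36e-05), although it belongs to a family of similar genes. Erbb3, a receptor of neuregulins, had 8.41, 8.36, 8.59 and 8.62 in the wild-type arrays, against a lowest, median and highest mutant value of 8.77, 8.99 and 9.31. It rose by 0.56 ± 0.09 on the log2 scale (1.48-fold, adjusted p = 0.000519), with an adjusted p among the mutants of 0.907. Cirbp, a cold-induced RNA-binding protein named after its values were seen, rose by 0.41 ± 0.07 on the log2 scale (1.33-fold, adjusted p = 0.00106), with all mutant arrays above wild type. Gpr137b-ps and Mpzl2, an epithelial adhesion molecule, rose by 0.60 ± 0.10 and 0.57 ± 0.12, the latter not called without wild-type arrays 3 and 4. Hao2, a peroxisomal hydroxyacid oxidase, rose by 0.98 ± 0.08 on the log2 scale (1.97-fold, adjusted p = 2.78e-07) but unevenly, with 0.39 in the Vhl, 1.28 in the Pbrm1 and 1.27 in the double mutants.

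**Figure D5:**
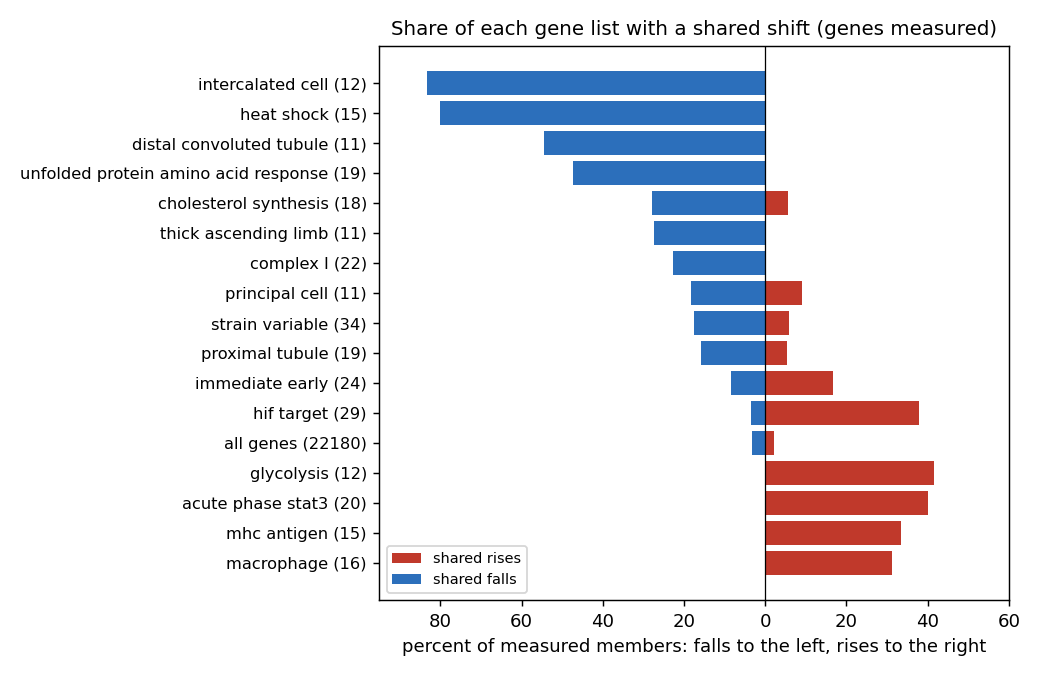
Percent of the measured genes of each list that were shared rises (red, to the right) or shared falls (blue, to the left), with the number measured in brackets, for lists of at least 10 measured genes in which 20% or more were shared, and for all genes. Intercalated cell and heat shock genes lie farthest to the left, glycolysis, acute phase and hypoxia-inducible factor targets farthest to the right, and all genes show 3.22% falls and 2.12% rises.

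Of 34 measured genes known to vary in expression between inbred strains, 2 were shared rises (Gbp2b and H2-Q10) and 6 shared falls (Agps, Apoa2, Ces1g, Fv1, Ide and Pttg1). Of all genes 2.12% rose and 3.22% fell. The list was compiled with earlier results of these data known, so its count is no independent evidence. Pttg1, a separase inhibitor, read 6.72, 6.72, 6.68 and 6.69 in wild type and 6.82, 6.68, 6.45 and 6.43 in the Vhl mutants. It read 4.41, 4.85, 5.72 and 5.69 in the Pbrm1 and 4.70, 4.58, 4.87 and 4.78 in the double mutants, so the low arrays were those of the genotypes with floxed Pbrm1. The interferon-inducible GTPase Gbp2b was near background in wild type (3.40, 3.32, 3.40 and 3.44) and in the Vhl mutants (3.57, 3.17, 4.04 and 3.58). In the Pbrm1 mutants it read 5.02, 3.99, 5.03 and 5.22 and in the double mutants 5.39, 5.19, 5.14 and 4.64. Wdfy1, a further gene of the list, differed in the same groups (-0.00 in the Vhl, 0.94 in the Pbrm1 and 0.90 in the double mutants) and was not shared, and Nnt, which carries a deletion in some C57BL/6 stocks, differed by -0.10 in the Vhl, 0.32 in the Pbrm1 and 0.58 in the double mutants.

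Lists of genes around the floxed genes and around the Cre promoter's own gene were checked against their RefSeq chromosomes. Of 27 genes near Vhl 1 fell (Sec13, a call lost without wild-type array 2), and of 27 near Cdh16 1 fell (Cdh16 itself). In either list 0 rose, and the fall was 3.7% of the list, close to the 3.22% of all genes that fell. Cdh16 read 10.85, 10.77, 10.73 and 10.82 in wild type, and fell by 0.20 ± 0.04 on the log2 scale (1.15-fold, adjusted p = 0.002), with Pbrm1 arrays 3 and 4 inside the wild-type range, a call lost without wild-type arrays 1 and 2. The list for Pbrm1 held 27 genes, 5 of which, Alas1 among them, RefSeq places on chromosome 9 and which are no neighbours of Pbrm1. Of the other 22, on chromosome 14 with Pbrm1, 3 fell (Nisch, Tnnc1 and Bap1) and 0 rose, beside 3.22% of all genes falling. Tnnc1, the slow muscle and cardiac troponin C, had the largest fall of the 3. Tnnc1 read 7.93, 7.14, 7.15 and 7.16 in the wild-type arrays, 6.28, 6.65, 6.43 and 6.48 in the Vhl mutants, 6.28, 6.46, 6.31 and 6.08 in the Pbrm1 mutants and 6.36, 6.18, 6.10 and 6.34 in the double mutants. All mutants were below all wild-type arrays, of which array 1 stood apart. Tnnc1 fell by 1.01 ± 0.12 on the log2 scale (2.02-fold, adjusted p = 2.4e-05), also in the Vhl mutants, which carry no floxed Pbrm1 in their labels (adjusted p among the mutants = 0.581). Bap1, a deubiquitinase, and Nisch fell by 0.24 ± 0.07 and 0.18 ± 0.05, calls lost when wild-type array 2 or array 4, among others, was left out.

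On chromosome 9 the stretch of 43 genes from Alas1 to Mon1a held 12 shared genes (27.9%), 4 higher and 8 lower, and was picked out after the values were seen. Abhd14a, a serine hydrolase-like gene, had 6.62, 6.78, 6.67 and 6.91 in the wild-type arrays, against a lowest, median and highest mutant value of 5.37, 6.06 and 6.55, with no overlap, and fell by 0.73 ± 0.07 on the log2 scale (1.66-fold, adjusted p = 2.71e-06). Its neighbour Abhd14b fell by 0.31 ± 0.05, and the RNA-binding gene Pcbp4 beside them rose by 0.58 ± 0.08. Over the genome 36 runs, each with 3 or more shared genes among 6 consecutive genes, held 118 genes, 15 runs in 1 direction only. Of 1170 placed shared genes 15% had a shared gene next to them, against 10.4% of all 21988 placed genes. By chromosome, 2.78% of genes on X and 0 of 17 on Y were shared, the autosomes ranged from 3.59% on chromosome 7 to 6.81% on chromosome 19, and 3 of 10 mitochondrial genes rose (ND1, COX3 and ND4L).

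Slc10a2, the sodium-dependent bile acid transporter of proximal tubule and ileum, was a shared rise by rule but not in size. It was named after its values were seen, with wild-type values of 7.89, 7.997, 7.99 and 7.68 and differences of 0.19 in the Vhl, 1.49 in the Pbrm1 and 1.13 in the double mutants (adjusted p among the mutants = 6.59e-09). Other lists are given beside 3.22% of all genes falling and 2.12% rising. Of 18 cholesterol synthesis genes 5 fell and 1 rose, with Hmgcs1, its early enzyme, lower mainly in the Pbrm1 mutants (-0.01 in the Vhl, -1.04 in the Pbrm1 and -0.26 in the double mutants). Cyp51 was the rise, by 0.43 ± 0.07 in the mean of the mutant groups. Of 22 complex I subunits 5 fell, by up to 0.28 log2 units, and 0 rose. Ndufb10, Ndufa2, Ndufs8 and Ndufa10 led the falls, and the Ndufb10 call was lost in 11 of 38 settings. The list median was -0.04 in the Vhl, -0.015 in the Pbrm1 and -0.22 in the double mutants. The complex I count was 2 without wild-type array 1. Of 23 SWI/SNF subunits only Smarca2 fell (-0.22 ± 0.05), near the share of all genes, and that call was lost without wild-type array 3. Shared genes numbered 0 of 24 cell cycle genes and 0 of 16 p53 targets, beside 5.34% of all genes. In the mean alone 1 cell cycle gene and 2 p53 targets were called higher. At the limit of the rule, Acss3 lay just inside (difference -0.29 ± 0.09, adjusted p = 0.05) and Flywch1 just outside (-0.27 ± 0.08, adjusted p = 0.0501).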

How the data were processed

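Kidney cortex RNA of 16 mouse samples was measured on Affymetrix arrays, and the authors deposited log2 expression values, made with Affymetrix Expression Console 1.4 and RMA per the submitters' processing notes. The table held 41345 probe sets; 23521 had 1 gene symbol in the platform annotation, 1814 had several and were not named, and 16010 were not listed. The probe set of highest mean stood for each of 22180 genes. The genome build of the array annotation is not given in the sources used here, so gene order, names and promoters came from RefSeq GRCm38.p6.

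Groups and Ksp-Cre genotypes were taken from the labels. A model over all 16 arrays was fitted with limma 3.58.1 (R 4.3.3), with group as a fixed term, the description number as a random block (duplicateCorrelation, 0.0838) and moderated variances with a trend. Every adjusted p in the text is from this model, two-sided, after Benjamini-Hochberg adjustment over 22180 genes, with a threshold of 0.05, unless it is said to be from the F test among mutants. Errors are standard errors of the model. This correlation rests on 2 numbers a group and may be understated, in which case adjusted p-values are too small: with arrays averaged per number 558 genes were called instead of 1430. The number of arrays limits the precision (median standard error 0.094 log2 units).

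Genes were named by rule: the 10 largest rises and falls and the 6 largest even rises and falls among genes with no overlap of arrays, up to 4 called members of each of 39 lists, runs of neighbouring shared genes, sex chromosome genes, Vhl, Pbrm1 and Cdh16. Other genes were named after their values were seen. The members and lists were chosen with earlier results of these data known. Alternatives were other normalizations, filters, variance models, blocks and the omission of arrays, numbers or genotypes. An omitted genotype was taken out of the mean and of the criteria on mutant groups, and its arrays stayed in the fit.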

Additional observations from a re-analysis of the deposited data

Results flagged for a closer look

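In 18 of 596 gene and group pairs of the named genes, 1 array of the 4 stood apart from the others by Dixon's rule, and chance gives about 1 in 20 such groups. The array was high for Slc46a3 in wild-type array 3 (9.12, against 8.95 to 8.98), Tnnc1 in wild-type array 1 (7.93, against 7.14 to 7.16), Hebp1 in double mutant array 3 (7.03, against 6.81 to 6.84), Emcn in wild-type array 3 (9.06, against 8.78 to 8.81), Emcn in Vhl mutant array 4 (9.58, against 9.38 to 9.39), Rgs5 in double mutant array 1 (9.57, against 9.24 to 9.29) and Slc2a1 in Pbrm1 mutant array 2 (8.78, against 8.54 to 8.56). It was also high for Cdkn1a in double mutant array 1 (8.82, against 8.55 to 8.59), Mki67 in Vhl mutant array 4 (6.65, against 6.30 to 6.34), Abhd14b in wild-type array 1 (10.36, against 10.31 to 10.31), Hspa8 in wild-type array 1 (11.99, against 11.86 to 11.86) and Ahsa1 in Vhl mutant array 2 (8.03, against 7.76 to 7.81). It was low for Gbp2b in Pbrm1 mutant array 2 (3.99, against 5.02 to 5.22), Slc16a3 in wild-type array 1 (4.504, against 4.94 to 5.02), Ndufs8 in Vhl mutant array 3 (9.73, against 9.81 to 9.83), Tpm4 in wild-type array 1 (6.53, against 6.77 to 6.82), Abhd14b in Vhl mutant array 3 (10.06, against 10.15 to 10.17) and Cpox in Vhl mutant array 1 (8.53, against 8.73 to 8.76).

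In 73 of the named shared genes the shift from wild type differed among the 3 mutant groups by the moderated F test (limma, Benjamini-Hochberg over 22180 genes), and the adjusted p is given in brackets for each. Among the falls these were Azgp1 (6.76e-11), Atp4a (0.000269), Slc46a3 (3.39e-07), Rhcg (6.5e-09), 3110045C21Rik (2.81e-06), Rhbg (7.45e-05), Slc5a2 (1.74e-06), Miox (2.77e-06), Bsnd (3.28e-05), Wfdc15b (0.00241), Klhl3 (0.0143), Calb1 (0.000415), Tmem52b (0.00239), Aqp3 (6.07e-06), Scnn1a (0.0446), Slc26a4 (8.58e-07) and Insrr (0.000642). Further falls were Slc4a1 (0.000424), Slc22a12 (0.00186), Pttg1 (3.71e-06), Alas1 (0.0269), Cdh16 (0.00132), Slc25a20 (0.0053), Sc5d (7.97e-07), Hmgcs1 (1.56e-08), Smarca2 (0.00772), Ndufa2 (0.00144), Ndufs8 (0.0432), Abhd14a (1.1e-06), Abhd14b (0.00171), Chordc1 (0.0299), Slc25a37 (7.11e-06), Hspd1 (0.00664), Plin2 (4.78e-09) and Atp6v1b1 (7.61e-06). Among the rises these were Fgg (1.22e-09), Igkv4-72 (0.000573), Jchain (0.000372), Pigr (4.22e-05), Ptpn22 (6.47e-07), Fga (1.43e-09), Hao2 (1.52e-06), Slc5a12 (0.00587), Aqp4 (0.00167), Emcn (8.46e-06), Lum (0.0194), Cd14 (0.000145), Cd68 (8.02e-06), Ighm (0.0196), Gbp2b (0.000184), H2-Q10 (0.0392), Egln3 (6.54e-10), Slc16a3 (1.78e-09) and Hk2 (1.25e-08). Further rises were Car9 (1.88e-07), Slc2a1 (4.94e-07), Havcr1 (0.000125), Serpina3n (5.87e-05), Xaf1 (0.0145), H2-Ab1 (9.12e-05), H2-Aa (9.78e-08), H2-DMa (0.000377), Egr1 (0.00775), Myc (1.56e-07), Nr4a1 (0.000432), Acot2 (0.0123), Tpm4 (0.0053), Slc10a2 (6.59e-09), Cldn1 (8.81e-05), Emp1 (0.00166), Tnfaip3 (0.0123), C4b (2.48e-08) and Pgam1 (0.0182).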

How the results depend on the processing

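The threshold counts were the unstable part. With arrays averaged per description number, 558 genes were called instead of 1430, with 217 shared rises, 210 shared falls, 14 called in each genotype, 227 that differ among mutants and 79 even. A 1.5-fold minimum left 229 called, 103 rises, 65 falls, 40 called in each genotype, 53 without overlap, 123 that differ and 25 even. Omitting wild-type arrays 1 and 2 gave 652 called, 313 rises, 237 falls, 44 in each genotype and 131 even, and omitting wild-type arrays 3 and 4 gave 156 in each genotype and 746 without overlap. A genotype was omitted only from the mean and from the criteria on mutant groups, and all 16 arrays stayed in the fit. The F test still compared all 3 mutant groups, and evenness became a range over 2 groups, a looser rule than in the main setting. Omitting the double mutants in this way gave 584 called, 199 rises, 336 falls and 246 that differ. Omitting the Pbrm1 mutants gave 1035 rises, 555 called in each of the 2 genotypes left, 971 without overlap, 1155 that differ and 983 even. Omitting the Vhl mutants gave 427 called in each of the 2 left, 786 without overlap, 811 that differ and 758 even. Fewer samples entered the fits with arrays averaged or left out. Beyond these differences of setting the cause was not tested. Omitting the 3 arrays of raised adipocyte genes, chosen after seeing the data, gave 469 falls, 44 in each genotype, 325 that differ and 174 even. Without the variance trend 52 genes were called in each genotype, without Pbrm1 arrays 3 and 4 there were 48, without Vhl arrays 1 and 2 there were 440 genes without overlap, and without double mutant arrays 1 to 3 there were 146 even genes.

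Leaving out 1 array at a time gave 949 to 1483 called genes, 335 to 503 rises, 451 to 753 falls, 52 to 119 called in each genotype, 280 to 453 without overlap, 404 to 529 that differ and 179 to 289 even. The lowest counts of called genes, falls and genes called in each genotype came without wild-type array 1 (949, 451 and 52), those without array 2 were 466 falls and 66 in each genotype, and 453 genes had no overlap without wild-type array 3.

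With the replicate number 1 to 4 as a block in place of the description number there were 552 rises and 844 falls. With no block at all there were 573 and 872. Arrays of the same replicate number in different groups had deviations correlated from -0.07 to 0.06 over 24 pairs. Pairs of other replicate numbers in different groups ranged from -0.12 to 0.12 (72 pairs). Within a group the median was -0.17 over 9 pairs of the same description number and -0.425 over 15 pairs of other numbers. Deviations from a group mean cancel within the group, which pulls these within-group values down. Whether arrays of the same replicate number share a batch was not tested. Of 140 named genes that were called, 57 kept their call in all 38 settings. The Y-linked Eif2s3y reversed, from 0.07 (adjusted p = 0.83, limma) to -0.30 (adjusted p = 0.0302) without wild-type arrays 3 and 4, and the cause was not tested.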

Other observations

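Of the 240 genes that were shared under each of the 4 demanding settings, 179 also differed among the mutant groups by the F test and 36 were even over the 3 genotypes. This set was drawn after its values were seen, and no test was made on it.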
